A study of Drosophila melanogaster with 40 samples.

Results

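The larval serum proteins and the fat body proteins of Drosophila melanogaster were followed through 6 genes: Lsp1alpha, Lsp1beta, Lsp1gamma, Lsp2, Fbp1 and Fbp2. They were selected by name from the deposited count table and make up 6 of its 17490 gene rows. The study expressed feline MYBPC3, the gene of a sarcomere protein mutated in cats with hypertrophic cardiomyopathy, in the fly heart and sequenced RNA of whole larvae and whole flies. It compared 4 genotypes. The control, attP2, carried the empty landing site over the heart-specific driver TinCΔ4-Gal4, and the lines WT, A31P and R820W carried UAS-WT-MYBPC3, UAS-A31P-MYBPC3 or UAS-R820W-MYBPC3 over the same driver. All 4 genotypes, the control included, shared the w1118/y, w and Chr2/+ chromosomes. Each transgene was represented by 1 inserted line. The 5 sets of samples were larvae of the third instar and adults of each sex, either nonexercised or exercised for 1 h, at an age of 1 week. Each of the 20 groups had 2 libraries, described as biological replicates and each made from a pool of 10 animals, so that p-values measure the spread between such pools.

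The larval serum proteins are storage proteins of the hemocyanin superfamily. The fat body, the insect counterpart of liver and adipose tissue, makes them in feeding larvae and secretes them into the hemolymph, and takes them back before pupariation as a store of amino acids for building the adult. Lsp1alpha, Lsp1beta and Lsp1gamma encode the subunits of the hexamer LSP1, and Lsp2 encodes the subunit of a separate hexamer. Fbp1 encodes the fat body receptor through which the serum proteins are taken back up, and Fbp2 encodes a fat body protein related to alcohol dehydrogenase. The steroid hormone ecdysone controls these genes at the end of larval life.

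The members lie apart on the genome, with release 6 coordinates as the deposited table gives them. Levels are given as CPM, the count of a gene scaled to a library total of 1e+06 counts over all gene rows. Exons were counted after overlapping exons of all transcripts of a gene were merged. Lsp1alpha (FBgn0002562) occupies bases 12490291 to 12492982 of chromosome X on the plus strand, with 2 exons and 2625 exonic bases. Lsp1beta (FBgn0002563) lies on chromosome arm 2L from 898500 to 901316, plus strand, with 2 exons and 2749 exonic bases. Lsp1gamma (FBgn0002564) lies near the tip of 3L from 66430 to 68995, plus strand, with 2 exons and 2501 exonic bases. The LSP1 subunit genes thus sit on 3 different chromosomes. Lsp2 (FBgn0002565) lies on 3L from 12129393 to 12131869, plus strand, with 1 merged exon of 2477 bases from 2 transcripts. The antisense gene CR11538 overlaps it, and was counted at 1.14 to 6.05 CPM in larvae. Fbp1 (FBgn0000639) lies on the minus strand of 3L from 14094589 to 14098053, with 1 merged exon of 3465 bases from 3 transcripts. Fbp2 (FBgn0000640) lies on 2L from 9426784 to 9427917, plus strand, with 2 exons and 1074 exonic bases. The gene CG42847 overlaps Fbp2 on the same strand and was counted at 13.9 to 25.2 CPM in larvae. How reads shared by such overlapping genes were assigned is not given in the sources used here.

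The libraries held 18493813 to 26917796 gene counts each, and a floor of 3 counts corresponded to 0.111 to 0.162 CPM. Rows of ribosomal RNA held 4.64% to 27.4% of the counts and 7SL RNA rows 2.09% to 18.2%. Fat body genes outside the members were present in every set: Rfabg, the apolipophorin precursor, measured 2865 to 11446 CPM over the 40 libraries. Larvae and nonexercised flies of replicate 1 were sequenced in lane 7 and those of replicate 2 in lane 8 of one flow cell. The 8 exercised female libraries were in 1 lane and the 8 exercised male libraries in another lane of a second flow cell, so that exercise and flow cell cannot be told apart. In exercised males, A31P replicate 2 and R820W replicate 2 held female RNA, with the yolk protein gene Yp1 at 1602 and 158 CPM against 0.692 to 2.44 CPM in the other 6 libraries. The nonexercised attP2 male replicate 1 measured 47.3 CPM of Yp1, against at most 3.79 CPM in the other nonexercised males.

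In larvae the 6 members were among the most abundant transcripts of the whole body. Together they took 4.65% to 6.99% of all counts in the 8 larval libraries, with a median of 5.70%, and the LSP1 subunits alone took 1.20% to 2.64%. With the ribosomal and 7SL rows set aside, Fbp1 ranked 1 and Lsp2 ranked 2 among all genes in every larval library. In the same ranking Lsp1beta stood between 3 and 6, Lsp1gamma between 4 and 11, Lsp1alpha between 5 and 12 and Fbp2 between 7 and 14. The corresponding share of all counts was at most 0.0469% in nonexercised males and 0.0312% in exercised males, and at most 0.0404% and 0.0146% in females of the same states.

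**Figure D1:**
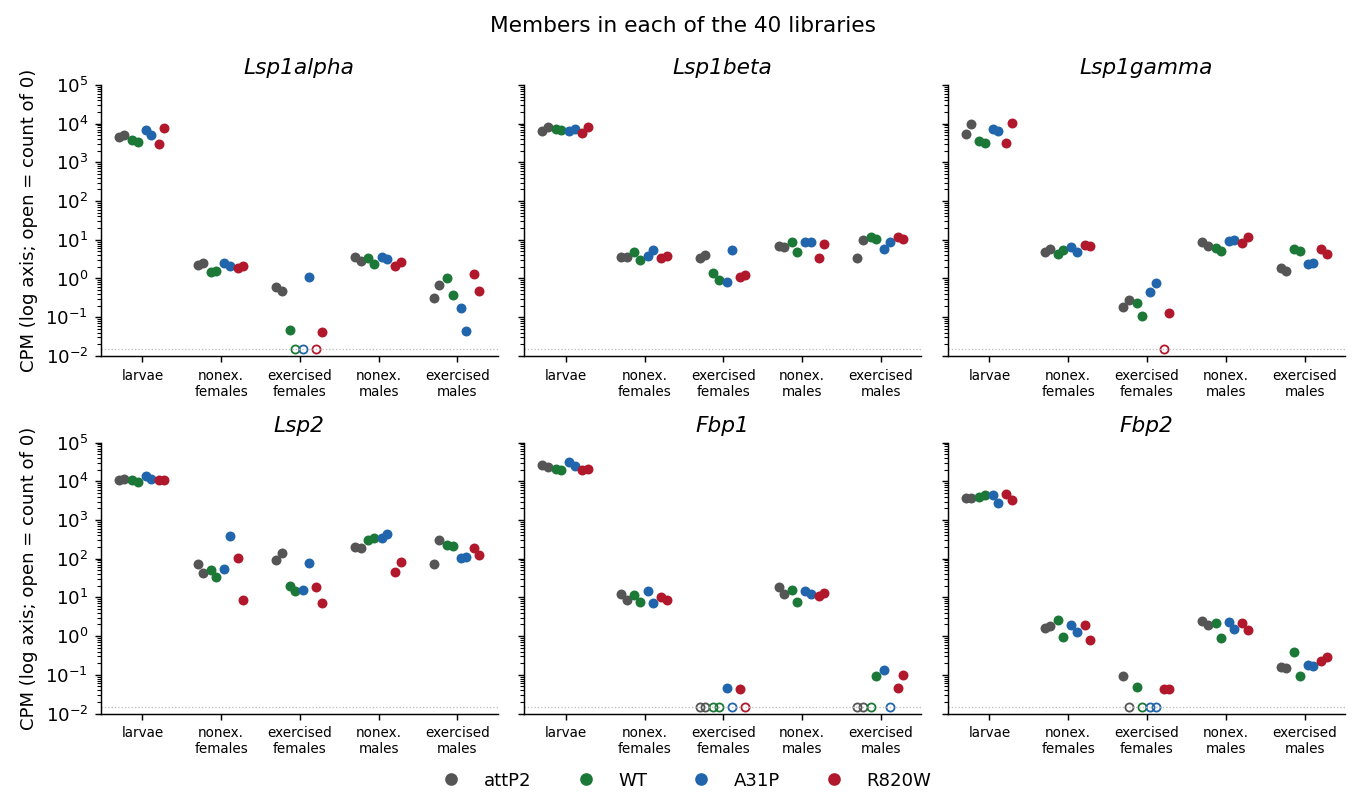
Level of each member in CPM (log axis) in the 40 libraries, with 8 points for larvae and for each sex and exercise state of adults. All 6 members lie between 2818 and 31685 CPM in larvae, and Fbp1 is at 3 counts or fewer in every exercised library.

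Per kilobase of exonic sequence, Fbp1 was the highest member in all 8 larval libraries, at 5542 to 9144 CPM per kb. Lsp2 followed in 7 of 8 libraries, at 3861 to 5380 CPM per kb, and Fbp2, at 2624 to 4337 CPM per kb, exceeded it in WT replicate 2. The LSP1 subunits were lower, with medians of 2514 CPM per kb for Lsp1beta, 2316 for Lsp1gamma and 1804 for Lsp1alpha. The ranges of Fbp2 and the 3 subunits overlapped, and so did those of Lsp2 and Fbp2, whereas the lowest Fbp1 value stood above the highest Lsp2 value.

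Among themselves the members differed in how much they varied between larval pools. Fbp1, the receptor, measured 25850 and 23178 CPM in attP2, 21294 and 19210 in WT, 31685 and 24586 in A31P, and 19203 and 21269 in R820W. Lsp2 measured 10855 and 11751 CPM in attP2, 10929 and 9563 in WT, 13325 and 11760 in A31P, and 10813 and 11058 in R820W. Both genes were highest in A31P replicate 1. The WT and R820W pools of Fbp1 lay below those of attP2 and A31P, which overlapped, and for Lsp2 both A31P pools lay above all others by a narrow margin. From the lowest to the highest library Lsp2 spanned 1.39-fold, Lsp1beta 1.43-fold, Fbp1 1.65-fold and Fbp2 1.65-fold. The median of the same span was 1.51-fold over 5636 genes with at least 10 CPM in every larval library and 1.55-fold over the 56 genes with a mean of at least 1000 CPM, so these 4 members varied about as much as other genes.

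Lsp1gamma and Lsp1alpha spanned 3.20-fold and 2.64-fold. Lsp1gamma measured 5247 and 9963 CPM in attP2, 3557 and 3168 in WT, 7299 and 6336 in A31P, and 3197 and 10148 in R820W. It was highest in R820W replicate 2 and attP2 replicate 2 and lowest in both WT libraries and R820W replicate 1, so that the replicates of attP2 and those of R820W stood far apart. Lsp1alpha measured 4448 and 5145 CPM in attP2, 3676 and 3453 in WT, 6789 and 5025 in A31P, and 2968 and 7822 in R820W. Lsp1beta, the remaining subunit of the same hexamer, stayed between 5873 and 8385 CPM. Its lowest and highest values were the R820W replicates 1 and 2.

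The proportions of the LSP1 subunits differed between pools. Per kilobase, the ratio of Lsp1gamma to Lsp1beta ran from 0.520 in WT replicate 2 to 1.33 in R820W replicate 2, and the ratio of Lsp1alpha to Lsp1beta from 0.529 in R820W replicate 1 to 1.12 in A31P replicate 1. The ratio of Lsp1alpha to Lsp1gamma ran from 0.492 to 1.04. Over the 8 larval libraries the log2 levels of Lsp1alpha and Lsp1gamma had a Pearson r of 0.90, against 0.55 for Lsp1alpha and Lsp1beta and 0.69 for Lsp1gamma and Lsp1beta, given as a description over libraries that share genotypes and lanes. Lsp2 and Fbp1 had an r of 0.84, and Fbp2 had negative values with all 5 other members, from -0.60 to -0.13.

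The summed level of the 5 muscle markers (Mhc, Act88F, up, Mlc2 and wupA) was 3169 and 7197 CPM in attP2, 2041 and 1772 in WT, 3770 and 4013 in A31P, and 1747 and 7705 in R820W larvae. The same libraries were high and low as for Lsp1gamma. Act88F, which marks adult flight muscle, stood at 0.0468 to 0.682 CPM in larvae. The prophenoloxidase genes PPO1, PPO2 and PPO3, hemocyanin superfamily enzymes of hemocytes, summed to 5.94 to 117 CPM with their highest value in R820W replicate 2. The part of muscle content and of hemocytes in the spread of Lsp1gamma was not tested. In RNA of a whole body, fewer cells of a type and less RNA per cell cannot be told apart.

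**Figure D2:**
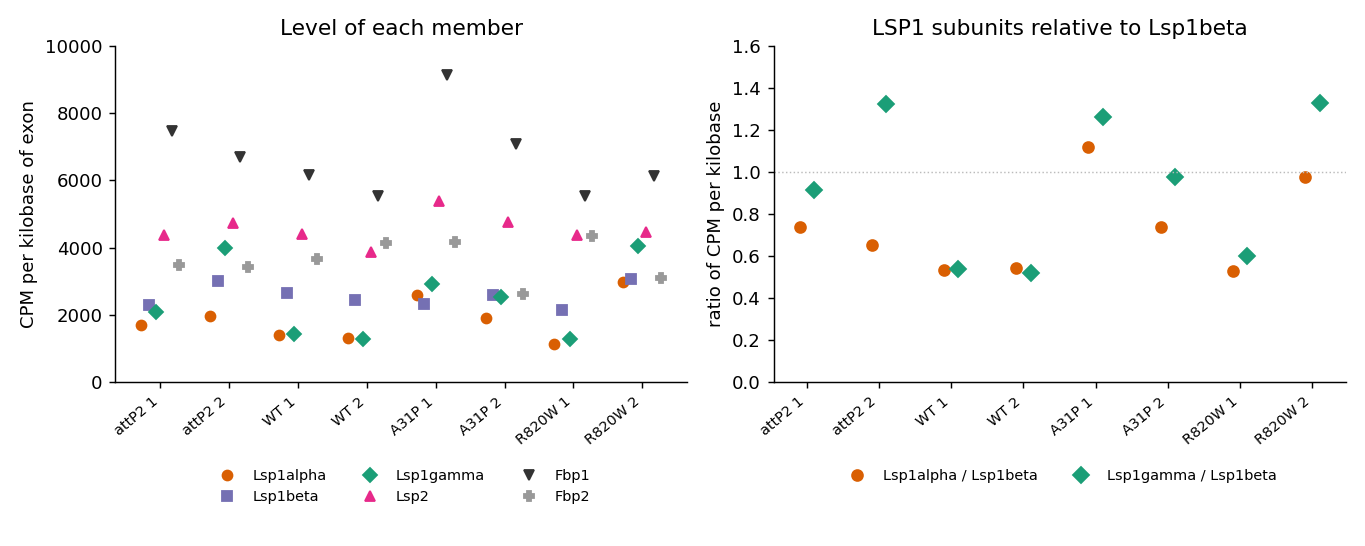
Left, level of each member in CPM per kilobase of exon (linear axis) in the 8 larval libraries, by genotype and replicate. Right, ratios of Lsp1alpha and Lsp1gamma to Lsp1beta per kilobase in the same libraries; the Lsp1gamma ratio is 0.520 in WT replicate 2 and 1.33 in R820W replicate 2.

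The lines were set against attP2, and the mutants against WT, by edgeR's quasi-likelihood test within a set, with p-values adjusted by the Benjamini-Hochberg method over all genes tested and a gene called significantly differentially expressed at an adjusted p under 0.05 and an absolute Log2FC over 0.5. The comparisons share the attP2 or WT libraries. In larvae 0 of 30 tests of members were called. None of the 30 had an unadjusted p under 0.05, and DESeq2 and edgeR's likelihood ratio test also called 0. The background was low as well, with 0.0233% of 12848 genes called for WT against attP2, 0.0389% for A31P, 0.0389% for R820W, 0.0156% for A31P against WT and 0% for R820W against WT. The largest differences were those of Lsp1gamma: a Log2FC of -1.26 for WT against attP2 (SE 0.67, adjusted p = 0.470), 1.08 for A31P against WT (SE 0.67, adjusted p = 1.00) and 1.29 for R820W against WT (SE 0.67, adjusted p = 0.997). Without attP2 replicate 2 the first became -0.66, and without R820W replicate 2 the last became -0.09. For Lsp2 the absolute Log2FC was at most 0.35, with an SE of 0.31 in each comparison.

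The members differed far more between stages than between genotypes. Nonexercised females measured 1.51 to 2.54 CPM of Lsp1alpha, 3.06 to 5.37 of Lsp1beta, 4.37 to 7.47 of Lsp1gamma, 7.02 to 14.3 of Fbp1 and 0.817 to 2.57 of Fbp2. Nonexercised males measured 2.10 to 3.64 CPM of Lsp1alpha, 3.35 to 8.84 of Lsp1beta, 5.11 to 11.9 of Lsp1gamma, 7.71 to 18.2 of Fbp1 and 0.869 to 2.40 of Fbp2. For each of these 5 genes the lowest larval library exceeded the highest nonexercised adult library, by 265-fold for Lsp1gamma in males up to 1344-fold for Fbp1 in females. Lsp2 stood apart from the other members, at 8.36 to 384 CPM in nonexercised females and 44.7 to 434 CPM in nonexercised males, and its lowest larval library was 22.0-fold above the highest nonexercised male.

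Larvae exceeded nonexercised adults for 6 of 6 members in both comparisons, where 74% of 13575 genes (females) and 74.6% of 14271 genes (males) were called in either direction, and 40.1% and 34.4% of all genes tested were called as higher in larvae. Against nonexercised females the Log2FC was 11.80 for Lsp1alpha (SE 0.29), 11.38 for Lsp1beta (SE 0.21), 10.59 for Lsp1gamma (SE 0.36), 7.88 for Lsp2 (SE 0.61), 11.76 for Fbp1 (SE 0.23) and 11.81 for Fbp2 (SE 0.26). Against nonexercised males it was 11.15 for Lsp1alpha (SE 0.34), 10.46 for Lsp1beta (SE 0.27), 9.99 for Lsp1gamma (SE 0.34), 6.23 for Lsp2 (SE 0.39), 11.27 for Fbp1 (SE 0.24) and 11.49 for Fbp2 (SE 0.27). Adjusted p-values of edgeR's quasi-likelihood test were at most 6.45e-09. For Fbp1, Fbp2 and Lsp1alpha these values rest on low adult counts that stood near a fixed share of the larval level. The counts of Lsp1beta in females stood near a similar share. Nonexercised adults shared lanes with larvae, as described below, and the part of this in the values was not tested. The median Log2FC over all genes tested was 0.06 and -0.05.

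Other genes timed by ecdysone stood higher in larvae beside the members. Of 19 tested genes of the glue (Sgs), Eig71E, ImpE and Eip type, 18 were higher in larvae than in nonexercised females and 19 than in nonexercised males. The median Log2FC was 10.09 and 9.07, against 0.06 and -0.05 for all genes, of which 40.1% and 34.4% were called higher in larvae. Another 33.9% and 40.2% of all genes were called lower in larvae, the background for the counts of lower genes below. Of the 22 genes listed, 12 to 14 were at or under 3 counts in each nonexercised female library and 10 to 14 in each male one. Genes at the floor in adults entered these fits through larvae, where they were higher. Their calls are a description and no test. Sgs7, a salivary glue gene, was higher by a Log2FC of 11.85 and 11.47. Among 10 ecdysone receptor and response factor genes, 8 were higher and 1 lower in each comparison. The higher ones included br, a transcription factor of metamorphosis (Log2FC of 6.07 and 7.65), and Eip78C, a nuclear receptor (5.88 and 4.79), and the lower one was the nuclear receptor ftz-f1 (-4.57 and -2.98). Secreted fat body proteins did not share one direction, with 10 higher and 5 lower of 20 against females and 6 higher and 3 lower of 20 against males. Obp99b, an odorant-binding protein of the hemolymph, was higher in larvae by a Log2FC of 11.44 and 9.0, and the yolk protein gene Yp1 was lower than in females by a Log2FC of -10.55. Fat body metabolic genes gave 5 higher and 6 lower of 13 against females and 3 higher and 8 lower against males, and fat body transcription factors gave 3 higher and 1 lower of 6 and 1 higher and 0 lower of 6. Of 8 amino acid sensing genes, 3 were higher and 4 lower against females and 6 higher and 1 lower against males. The prophenoloxidase genes gave 2 higher and 1 lower of 3 against females and 1 higher and 0 lower against males.

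Between nonexercised males and females, Lsp2 was higher in males with a Log2FC of 1.53 (SE 0.47, adjusted p = 0.00547). The LSP1 subunits were higher by 0.61 for Lsp1alpha, 0.88 for Lsp1beta and 0.56 for Lsp1gamma (SE 0.14, 0.17 and 0.12). The median gene was at 0.33 in the same fit, and RLE size factors in place of TMM raised the values in favour of males, by 0.15 for the median gene. Fbp1 had a Log2FC of 0.45 (adjusted p = 0.0117), under the limit of 0.5, and Fbp2 of 0.28 (adjusted p = 0.267). Thus 4 of 6 members were called, where 80.3% of 14095 genes were and 46.5% were higher in males, and the count was 5 with DESeq2 and 2, Lsp1beta and Lsp2, in a fit of all 40 libraries. The counts of Lsp1alpha, Fbp1 and Fbp2 in both sexes stood near a fixed share of the larval level, as described below. The part of this in their differences between the sexes was not tested.

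The level of some members in exercised adults differed from that in nonexercised adults. Fbp1 fell to the floor: of 16 exercised libraries, 10 had 0 counts and the highest had 3. Its mean was at least 63.5-fold higher in nonexercised than in exercised females and at least 82.9-fold higher in nonexercised than in exercised males, both against a floor of 3 counts in the shallowest exercised library. In larvae Fbp1 was at least 122178-fold above the same floor in its lowest library. Fbp2 was at 0 to 2 counts in exercised females, where nonexercised females were at least 10.3-fold higher in the mean. In exercised males Fbp2 measured 0.0912 to 0.400 CPM, with a Log2FC of -3.41 against nonexercised males (SE 0.29).

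The LSP1 subunits were not equal in this respect. Lsp1alpha fell in females (Log2FC of -2.97, SE 0.58, adjusted p = 0.000388) and in males (-2.78, SE 0.38, adjusted p = 4.19e-05). Lsp1gamma fell in males (Log2FC of -1.53, SE 0.25, adjusted p = 0.000172) and had a Log2FC of -4.34 in females (SE 0.36). In exercised females, 5 of 8 libraries for Lsp1alpha and 3 of 8 for Lsp1gamma were at or under 3 counts. Lsp1beta stood at 0.830 to 5.40 CPM in exercised females (Log2FC of -0.78, SE 0.34, adjusted p = 0.0506) and at 3.34 to 11.5 CPM in exercised males (Log2FC of 0.05, SE 0.24, adjusted p = 0.894). With the replicate number as a block the female value for Lsp1beta was -0.80 with an adjusted p of 0.0473, and DESeq2, the likelihood ratio test, RLE size factors and the fit of all 40 libraries also called it, for a count of 5. Leaving out attP2 replicate 1 or 2 or A31P replicate 1 of the nonexercised females, or attP2 replicate 2 or A31P replicate 2 of the exercised ones, also brought the count to 5. Lsp2 had a Log2FC of -0.99 in females (SE 0.63, adjusted p = 0.171) and -0.61 in males (SE 0.38, adjusted p = 0.232). Of the 6 members, 4 were called in each sex, in the lower direction. Fbp1 and Fbp2 in both sexes, and Lsp1gamma in females, did not pass the filter on low counts among exercised libraries and entered these fits through the nonexercised ones, where they were higher, so that their calls are a description and no test. Of the members that passed it in exercised libraries too, Lsp1alpha was lower in both sexes and Lsp1gamma in males. In exercised females Lsp1alpha passed it only through both attP2 libraries and A31P replicate 2, where it was higher. Its call in females is therefore also a description and no test. The background was 41.4% of 11263 genes in females, with 25.4% lower, and 11.4% of 14090 genes in males, with 5.61% lower.

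For some members the low level of nonexercised adults was close to a fixed share of the larval level. The 2 lanes with nonexercised adults each also held 4 larval libraries, and the lanes with exercised adults held no larval library of the series. Taken as a percentage of the mean larval CPM of the same lane, the median over the 16 nonexercised adult libraries was 0.0483% for Fbp1 (0.0318% to 0.0744%), 0.0468% for Fbp2 (0.0229% to 0.0612%) and 0.0481% for Lsp1alpha (0.0293% to 0.0815%). Lsp1beta stood at 0.0674%, Lsp1gamma at 0.113% and Lsp2 at 0.825%, with a range for Lsp2 of 0.0758% to 3.93%. The 5 other genes with a larval mean of at least 500 CPM and at most 3 counts in all 16 exercised libraries, chosen after their values were seen, had similar shares. Their medians were 0.0566% for the cuticle gene Lcp1, 0.0478% for the cuticle gene Lcp4, 0.0471% for Sgs8, 0.0455% for Sgs7 and 0.0424% for Eig71Ee. Salivary gland markers, whose larval tissue is lost at metamorphosis, summed to 2.30 to 4.60 CPM in nonexercised adults and 0 to 0.365 CPM in exercised adults. Fbp1, Fbp2 and Lsp1alpha thus had shares like those of genes of larval cuticle and larval salivary gland, and Lsp1gamma and Lsp2 had a larger one. Lsp1beta ran from 0.0402% to 0.0766% in nonexercised females and up to 0.137% in nonexercised males. Its female values lay within the range of Lcp1 over the 16 libraries (0.0238% to 0.115%). Whether reads of larval libraries were assigned to adult libraries of the same lane was not tested. The differences of these members between larvae and nonexercised adults, between nonexercised males and females, and between exercised and nonexercised adults rest on these adult counts.

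**Figure D3:**
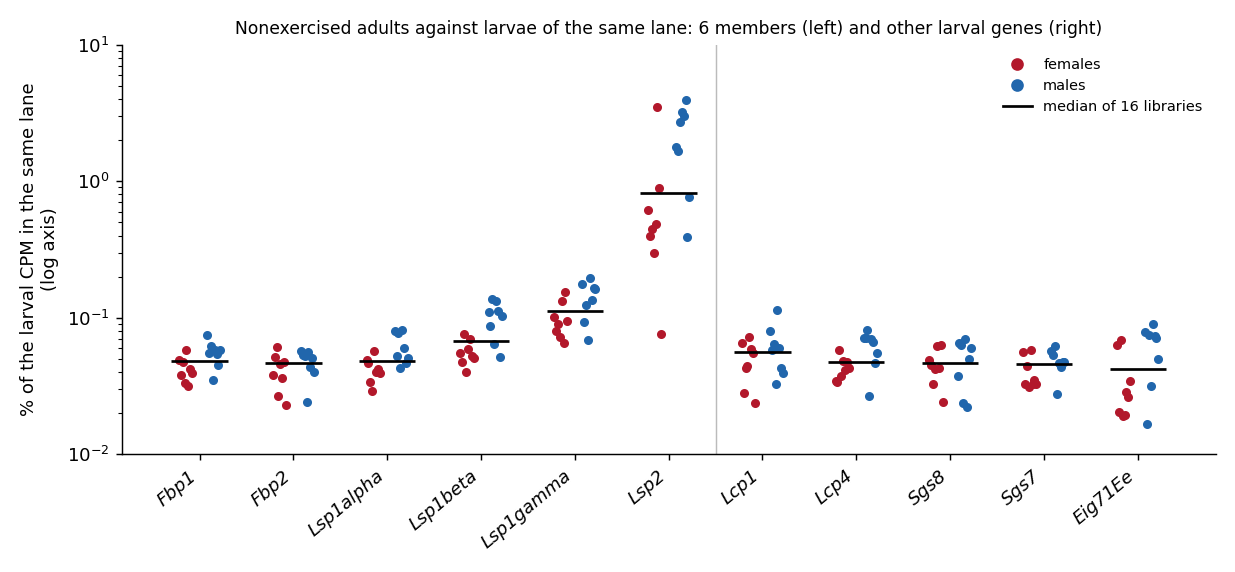
Level of each gene in adult libraries as a percentage of the mean larval CPM (log axis), for the 6 members and for other genes high in larvae and at the floor in exercised adults. Points are the 16 nonexercised adult libraries, set against larvae of the same lane. Fbp1, Fbp2 and Lsp1alpha have medians of 0.0468% to 0.0483%, and Lsp2 has 0.825%.

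Per kilobase Lsp2 was the highest member in adults, and in nonexercised males it differed between lines. There it measured 203 and 185 CPM in attP2, 311 and 352 in WT, 345 and 434 in A31P, and 44.7 and 84.1 in R820W. Both R820W libraries lay below all 6 others, and both attP2 libraries lay below those of WT and A31P. R820W was lower than attP2 with a Log2FC of -1.69 (SE 0.22, adjusted p = 0.00889) and lower than WT with a Log2FC of -2.44 (SE 0.22, adjusted p = 0.00131). In each of these comparisons 1 of 6 members was called, where 0.679% and 0.664% of 13706 genes were. Each of the libraries left out in turn kept both calls, with Log2FC of -2.16 to -1.35 against attP2 and -2.90 to -2.09 against WT.

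WT and A31P males were higher than attP2 without passing the threshold: Lsp2 had a Log2FC of 0.75 in WT (SE 0.21, adjusted p = 0.140) and 0.92 in A31P (SE 0.21, adjusted p = 0.0801). With the replicate number as a block, A31P had a Log2FC of 0.90 and an adjusted p of 0.0480, which passes. In both comparisons, and in A31P against WT, 0 of 6 members were called in the fit without the block, against 0.97%, 1.07% and 0.109% of genes. At an unadjusted p under 0.05 the members were Lsp1gamma and Lsp2 for WT, Lsp2 for A31P and Lsp1gamma for A31P against WT. The likelihood ratio test called 1, 1 and 0 and DESeq2 called 0. Lsp1gamma measured 8.55 and 6.87 CPM in attP2, 6.03 and 5.11 in WT, 9.45 and 9.98 in A31P and 8.01 and 11.9 in R820W males, and the quasi-likelihood test did not call it in any of the 5 comparisons. The likelihood ratio test called it for R820W against WT, and the fit of the 2 groups alone for A31P against WT.

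Other genes moved beside Lsp2 in R820W males. Against WT all 5 muscle markers were higher in R820W, with Act88F at a Log2FC of 3.02 and Mhc at 0.77. Act88F measured 393 and 373 CPM in attP2, 56.5 and 52.5 in WT, 138 and 160 in A31P, and 305 and 624 in R820W. Against attP2 none of the muscle markers was called, while Pepck, the gluconeogenic enzyme phosphoenolpyruvate carboxykinase, was lower (Log2FC of -1.19), as was mdy, a diacylglycerol acyltransferase of fat storage (-0.65), and the hemocyte gene NimC1 was higher (2.32). Pepck and mdy come from a list of 13 fat body metabolic genes and NimC1 from a list of 4 hemocyte markers. They do not stand for these lists, whose other genes are not described here. The part of tissue make-up in the Lsp2 difference was not tested.

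**Figure D4:**
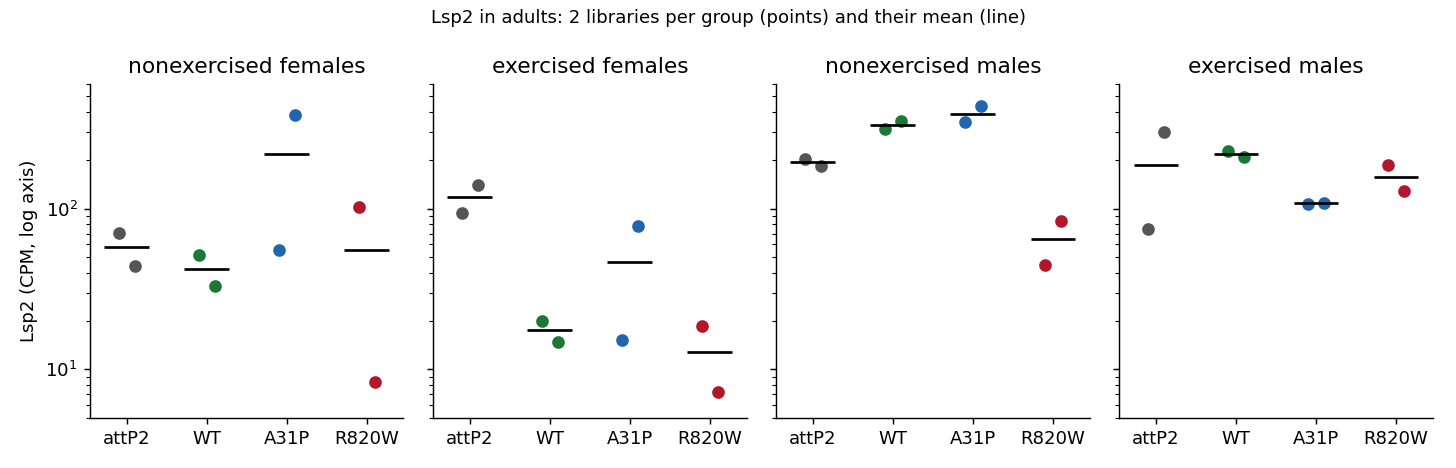
Level of Lsp2 in CPM (log axis) in the 32 adult libraries by genotype, one panel for each sex and exercise state, with each point a pool. In nonexercised males the R820W pools, at 44.7 and 84.1 CPM, lie below the 6 others.

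In females Lsp2 varied strongly between pools of one genotype. Nonexercised females measured 70.9 and 43.8 CPM in attP2, 51.2 and 33.0 in WT, 55.4 and 384 in A31P, and 102 and 8.36 in R820W. A31P replicate 2 and R820W replicate 2 were the highest and the lowest of the 8. The Log2FC of A31P against attP2 was 2.01 (SE 1.01, adjusted p = 0.779), and -0.06 without A31P replicate 2. In nonexercised females 0 of 30 tests of members were called, with backgrounds of 0.0723% of 11063 genes for WT against attP2, 0.0994% for A31P, 0.127% for R820W, 0.127% for A31P against WT and 1.04% for R820W against WT. At an unadjusted p under 0.05 there were 2, Lsp2 for A31P against WT and Lsp1gamma for R820W against WT, and DESeq2 and the likelihood ratio test called 0. Lsp1gamma had a Log2FC of 0.63 for R820W against WT (SE 0.24, adjusted p = 0.122), and it passed when R820W replicate 1 was left out.

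In exercised females Lsp2 measured 94.0 and 141 CPM in attP2, 20.1 and 14.8 in WT, 15.3 and 78.0 in A31P, and 18.5 and 7.24 in R820W. Both attP2 pools lay above the 6 pools of the transgenic lines. The Log2FC was -2.66 for WT (SE 0.72, adjusted p = 0.821), -3.19 for R820W (SE 0.73, adjusted p = 0.320) and -1.42 for A31P (SE 0.67, adjusted p = 1), so that these differences did not pass the test over all genes. The likelihood ratio test called Lsp2 in WT (adjusted p = 0.0332) and in R820W (adjusted p = 0.00336), and fits of the 2 groups alone called it in WT and R820W. Lsp1beta measured 3.43 and 4.05 CPM in attP2, 5.40 in A31P replicate 2 and 0.830 to 1.42 CPM in the other 5 libraries, so that A31P replicate 2 was the highest. Of 6 members 3 passed the filter on low counts, Lsp1alpha, Lsp1beta and Lsp2, and 0 of 15 tests were called. The background was 0.0747% of 10712 genes for WT, 0.112% for A31P, 0.112% for R820W, 0% for A31P against WT and 0.00934% for R820W against WT. At an unadjusted p under 0.05 there were 4 tests, Lsp2 in WT and Lsp1alpha, Lsp1beta and Lsp2 in R820W, and DESeq2 called 0. Lsp1alpha had 13 and 10 counts in attP2 and 22 in A31P replicate 2, against 0 or 1 in the other 5 libraries. It passed the filter through the libraries where it was higher, so that its p in R820W is a description and no test.

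In exercised males the member that differed was Lsp1gamma. It measured 1.88 and 1.57 CPM in attP2, 5.91 and 5.20 in WT, 2.32 and 2.58 in A31P, and 5.86 and 4.35 in R820W. The WT and R820W libraries lay above all attP2 and A31P libraries. The Log2FC against attP2 was 1.68 in WT (SE 0.23, adjusted p = 0.0239), 1.64 in R820W (SE 0.23, adjusted p = 0.0261) and 0.49 in A31P (SE 0.23, adjusted p = 0.302). Of the 4 testable members 1 was called for WT, 0 for A31P and 1 for R820W, with backgrounds of 1.14%, 0.568% and 0.841% of 13912 genes. For A31P no member had an unadjusted p under 0.05, and DESeq2 and the likelihood ratio test called 0. Left out in turn, attP2 replicate 1 or 2 and WT replicate 1 or 2 each ended the call in WT (adjusted p of 0.200 to 0.246, Log2FC of 1.55 to 1.81). Likewise attP2 replicate 1 or 2 and R820W replicate 1 or 2 each ended it in R820W (adjusted p of 0.0639 to 0.232, Log2FC of 1.40 to 1.85). Without both libraries that held female RNA, the adjusted p was 0.000595 in WT and 0.00189 in R820W, the latter with 1 R820W library, assumed to vary like the other groups.

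Between the mutants and WT in exercised males, Lsp1gamma had a Log2FC of -1.19 for A31P (SE 0.22, adjusted p = 0.152) and -0.04 for R820W (SE 0.21, adjusted p = 0.992). The A31P difference passed without both libraries that held female RNA (Log2FC of -1.29, adjusted p = 0.0164) and when A31P replicate 1 was left out (adjusted p = 0.0212), each time with 1 A31P library and the spread taken from the other groups. Without A31P replicate 2 alone the adjusted p was 0.197. No member was called in either comparison, where 0.0288% and 0.0647% of genes were. At an unadjusted p under 0.05 there were Lsp1alpha and Lsp1gamma for A31P and none for R820W. Lsp1alpha had 4 and 1 counts in A31P and passed the filter through libraries of other groups, so that its p is a description and no test. DESeq2 called 0 in both and the likelihood ratio test 1 and 0.

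The effect of the WT transgene on Lsp1gamma differed between exercised and nonexercised males, with an interaction Log2FC of 2.15 (SE 0.30, adjusted p = 0.0147). In nonexercised males the Log2FC of WT against attP2 was -0.50 (adjusted p = 0.233). This was 1 of the 4 members that passed the filter in exercised males, against 0.192% of 14090 genes. Leaving out any of the 4 exercised libraries, attP2 replicate 1 of the nonexercised males or either nonexercised WT library ended the call, with Log2FC over all omissions of 2.02 to 2.32 and adjusted p of 0.0049 to 0.123. The interactions of A31P (0.20, adjusted p = 0.866) and R820W (1.34, adjusted p = 0.330) were not called. Fbp1 and Fbp2, at or near 0 counts in exercised flies, and Lsp1gamma in females entered the interactions through nonexercised flies, so that a missing call says nothing about them. In the 5 other interactions 0 members were called, with backgrounds of 0.0284% for A31P and 0.0071% for R820W in males, and 0.00888%, 0% and 0.00888% for WT, A31P and R820W in females. DESeq2 and the likelihood ratio test also called 0 there, and at an unadjusted p under 0.05 there were 2, 2, 0, 1 and 3 members in the same order.

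Beside Lsp1gamma, 1 of 5 muscle markers and 3 of 13 fat body metabolic genes were called in exercised WT and in exercised R820W males. Act88F was higher in WT (Log2FC of 1.14) and in R820W (1.30), and the metabolic genes Lsd-1, Lsd-2 and mdy, which act in fat storage, were lower (-1.19, -0.58 and -0.78 in WT and -1.72, -0.61 and -0.82 in R820W). NimC1, from the list of 4 hemocyte markers whose other genes are not described here, was higher in WT (2.08). Their part in the difference of Lsp1gamma was not tested. Lsp2 in exercised males measured 74.6 and 300 CPM in attP2, 230 and 210 in WT, 107 and 109 in A31P, and 188 and 128 in R820W, with the attP2 pools at both ends of the range and no call. Exercised males exceeded exercised females, with Log2FC of 1.67 for Lsp1beta, 3.34 for Lsp1gamma and 1.90 for Lsp2 (SE 0.40, 0.42 and 0.51). These were 3 of the 4 members in the fit, where 86.7% of 14210 genes were called and 51.8% were higher in males, and the median gene was at 0.68. Lsp1gamma did not pass the filter on low counts among exercised females and entered this fit through males, where it was higher. Its call is therefore a description and no test. A further member passed when A31P replicate 2 of the exercised females was left out.

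**Figure D5:**
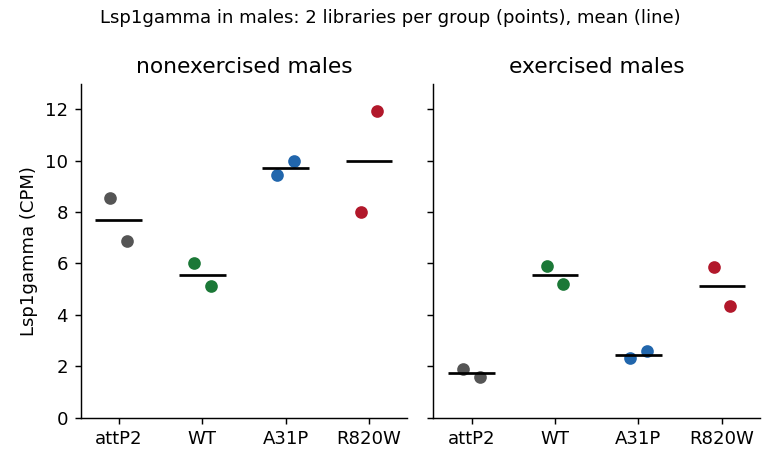
Level of Lsp1gamma in CPM in the 16 male libraries by genotype, for nonexercised and exercised males, with each point a pool. Exercised WT and R820W males measure 4.35 to 5.91 CPM and exercised attP2 and A31P males 1.57 to 2.58 CPM.

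The genes with the pattern most like each member were taken over the 40 libraries by the smallest root mean square (RMS) difference of centred log2(CPM + 1) values, among 10953 genes. Fbp2 was closest to Sgs7 (0.25), Sgs5 (0.28) and Lsp1alpha (0.41), and Lsp1alpha was closest to Sgs7 (0.38), Fbp2 (0.41) and Sgs5 (0.41). Fbp1 was closest to Fbp2 (1.22), Lsp1alpha (1.23) and Sgs7 (1.29). Lsp1beta was closest to CG42500 (0.73), Cpr49Ac (0.75) and Sgs8 (0.77), and Lsp1gamma to Lsp1alpha (0.68), Lcp4 (0.74) and CG42500 (0.77). Lsp2 was closest to CG12310 (1.11), CG11529 (1.19) and CG11854 (1.24). The closest genes of Fbp1 and Lsp2 were thus farther away than those of the other members. The median RMS difference of all genes ran from 3.43 for Lsp2 to 5.63 for Fbp1.

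Within the 8 larval libraries the closest genes were others. Lsp1gamma was closest to CG5023 (0.13), the phosphoglycerate mutase gene Pglym78 (0.13) and the tropomyosin gene Tm2 (0.14), against a median of 0.74. Lsp1alpha was closest to Cys, a cystatin gene (0.14), CG7255 (0.16) and CG8550 (0.17), against a median of 0.57. Lsp2 was closest to dj-1beta (0.05), Pcd (0.05) and Tal (0.06), and Lsp1beta to CG31673 (0.04), CG30493 (0.07) and CG14483 (0.09). Fbp1 was closest to Obp56g (0.08), CG3149 (0.12) and nec (0.12), and Fbp2 to CG32791 (0.09), CG14527 (0.10) and CG1236 (0.10). For these 4 members the median of all genes was 0.25 to 0.32. Some of these closest genes were low in larvae, with a mean of 0.30 CPM for Obp56g and 2.61 CPM for CG32791. At such levels the pseudocount of 1 narrows the values. With a pseudocount of 0.1 Obp56g was no longer among the 3 genes closest to Fbp1.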

How the data were processed

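RNA of 40 pools was sequenced as directional libraries. Per the labels and the study's methods, the authors used bcl2fastq, FastQC and Cutadapt on the reads, took out ribosomal reads after TopHat alignment, and mapped and counted in CLC Genomics Workbench. The authors deposited whole-number counts of reads per gene, without normalization. The RPKM, TPM and CPM columns of that program were not used. Strand setting and treatment of reads with several hits are not given in the sources used here.

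Libraries were grouped by their labels. CPM were computed over all gene rows, and lengths came from the exons of an Ensembl annotation, in which 6 of 6 identifiers matched. The main test was the two-sided quasi-likelihood test of edgeR 4.0.16 (R 4.3.3) with TMM factors, after filterByExpr with a minimum count of 10 and a minimum total of 15, and with Benjamini-Hochberg adjustment over all genes tested. There were 37 comparisons: 25 of lines within a set, 6 between sets with genotype as a term, and 6 interactions. SE is the absolute Log2FC over the root of F. The floor of 3 counts covers counting error only. Alternatives were DESeq2 1.42.0, the likelihood ratio test, RLE factors, no filter, totals without ribosomal, 7SL and member rows, a replicate block, the 2 groups alone, all libraries in one fit, each library left out (the remaining library of its group is then assumed to vary like the other groups), both libraries with female RNA left out, and a pseudocount of 0.1 in place of 1. The scripts were tested on simulated data. Tables and figures were made in Python 3.11.15 (pandas 2.3.3, matplotlib 3.10.9, numpy 2.4.6).

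Named genes are the 6 members, the 3 genes most like each (among genes with a group mean of at least 10 CPM), and, from lists of ecdysone, fat body, hemocyanin, amino acid sensing and cell type marker genes, those called in a comparison used, up to 4, or moving with a result. The members and lists were chosen with earlier results of these data known. Both replicates of a group had identical counts for at most 4.17% of genes. In larvae and nonexercised flies a replicate number marks a shared lane, as the column headers state. Same-numbered deviations, compared over 6 pairs of genotypes per set, had correlations between -0.25 and 0.50 (larvae), -0.08 and 0.07 (nonexercised males) and 0.05 and 0.40 (nonexercised females). In exercised flies, where both replicates of a sex shared 1 lane, they lay between -0.18 and 0.66 (males) and -0.48 and 0.33 (females).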

Additional observations from a re-analysis of the deposited data

Results flagged for a closer look

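Lsp1gamma in males met the criterion of an effect that differs between groups by a test of the difference itself. The effect of the WT transgene against attP2 was 2.15 higher on the log2 scale in exercised than in nonexercised males (SE 0.30, adjusted p = 0.0147, edgeR quasi-likelihood test of the interaction). Both exercised WT pools, at 5.91 and 5.20 CPM, lay above both exercised attP2 pools, at 1.88 and 1.57 CPM, and both nonexercised WT pools, at 6.03 and 5.11 CPM, lay below both nonexercised attP2 pools, at 8.55 and 6.87 CPM. Of 5 muscle markers 2 were called in the same interaction, Act88F with a Log2FC of 3.95 (adjusted p = 0.00136) and Mlc2 with 1.20 (adjusted p = 0.0201). Nonexercised flies shared lanes with larvae of the series and exercised flies did not, and the part of this in the interaction was not tested.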

How the results depend on the processing

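Of 507 alternative counts of members called, 474 were the same or close. A change such as 4 to 5 or 3 to 4 was taken as close. Of 898 alternative Log2FC values 866 kept direction and side of the threshold. The likelihood ratio test called 1 member in WT and 1 in R820W exercised females, 1 in WT and 1 in A31P nonexercised males, 2 for R820W against WT in nonexercised males and 1 for A31P against WT in exercised males. Fits of the 2 groups alone called 1 in WT and 3 in R820W exercised females, 1 in WT, 1 in A31P and 1 for A31P against WT in nonexercised males. Of the 3 in R820W females, Lsp1alpha entered through attP2, where it was higher, so that its call is a description and no test. Without a filter 1 member was called in R820W exercised females and 1 in A31P nonexercised males. Without both libraries that held female RNA, 1 was called for A31P against WT in exercised males, and the fit of all 40 libraries called 2 between nonexercised males and females. With the replicate block, 1 member, Lsp2, was called for A31P in nonexercised males (adjusted p = 0.0480), Lsp1beta passed between exercised and nonexercised females (adjusted p = 0.0473), as it did with DESeq2, the likelihood ratio test, RLE factors and all 40 libraries in one fit, and the block changed no other member call.

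With each library left out, counts ran from 0 to 1 for R820W against WT in nonexercised females, A31P against WT in exercised males and the WT interaction in males, were 0 for WT and for R820W in exercised males, and ran from 4 to 5, 3 to 4 and 4 to 5 for nonexercised males against females, exercised males against females and exercised against nonexercised females. With each library left out, 5 differences had a range that crossed 0: Lsp1gamma for R820W against WT in larvae (-0.085 to 1.97, the lowest without R820W replicate 2), Lsp2 for A31P against attP2 in nonexercised females (-0.064 to 2.83, the lowest without A31P replicate 2), and, for A31P against WT in exercised females, Lsp1alpha (-2.48 to 6.49), Lsp1beta (-0.61 to 2.04) and Lsp2 (-0.33 to 1.98), each lowest without A31P replicate 2. The cause was not tested. CPM without ribosomal and 7SL rows had larval medians of 7250 for Lsp1alpha, 10836 for Lsp1beta, 8859 for Lsp1gamma, 17618 for Lsp2, 35848 for Fbp1 and 6078 for Fbp2, and 344 for Lsp2 in nonexercised males. With a pseudocount of 0.1, 0 to 2 of 3 closest genes over 40 libraries and 2 to 3 of 3 over larval libraries were shared. Having 2 pools per group and, for exercised adults, fewer than 30 counts of Lsp1alpha limit the precision.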
